A study of Mus musculus with 66 samples.

Results

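Hippocampal RNA was compared between 12-month-old C57BL/6 mice injected with extract of Alzheimer's disease brain (AD) and mice of the same strain and age injected with a control brain extract (Ctrl), both at 1 month post injection (mpi). These libraries were chosen by their labels and their column names, and they are 11 of the 66 libraries of a study of seeded tauopathy: 5 Ctrl and 6 AD. The other libraries compared below are the AD and Ctrl libraries of 12-month-old mice at 3 mpi (12 libraries) and 5 mpi (14 libraries) and of 3-month-old mice at 1 mpi (11 libraries). Those of 3-month-old mice at 3 and 5 mpi were not compared. They entered the gene filter and shared spread of the 3-month and between-age tests, and the joint scaling of the latter. All came from the hippocampus of C57BL/6 mice, as polyA RNA, and the labels name no transgene. Injection site, dose and sex are not in the labels, nor is it said whether age was counted at injection or at collection. No label ties a library to its own animal, so the p-values below measure the spread between libraries, which may be technical.

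Tau is a microtubule-binding protein of axons that forms insoluble aggregates in Alzheimer's disease. Aggregated tau from diseased brain can act as a seed, on which the recipient's own tau misfolds, and this is the basis of seeded models in mice that carry no tau transgene. Glia respond to protein aggregates and to injury: microglia shift to a state marked by lysosomal and phagocytic genes, astrocytes increase cytoskeletal and acute-phase genes, and both make complement.

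The 11 libraries held between 44990308 and 57329441 reads in genes, and the ranges of the Ctrl and AD libraries overlapped. Genes of the hippocampal fields were detected in every library: Prox1 of dentate granule neurons lay between 71.4 and 127 normalized CPM (the deposited unit: reads relative to the library total, divided by 1 scaling factor per library), and Wfs1 of CA1 neurons between 83.0 and 106. Genes of neighbouring tissue varied widely. Ttr, the transthyretin of choroid plexus, ranged from 307 to 7451, and Gh, the growth hormone of the pituitary, from 0 to 36.8. The labels give no sex. Ddx3y, a Y-linked gene, split the libraries into a high class (Ctrl 1 and 4, AD 2, 3 and 6, from 78.4 to 93.6) and a low class (Ctrl 2, 3 and 5, AD 1, 4 and 5, from 0.0893 to 1.20). The female-specific transcript Xist was between 492 and 756 in the low class and between 0.727 and 3.34 in the high class, apart from AD 3, which had 24.3 beside a Ddx3y of 83.2. Ctrl 1 and Ctrl 4 had the lowest scores of the 5 Ctrl libraries on the choroid plexus, microglial, reactive astrocyte, complement, interferon and MHC lists. A score is the mean of log2(value + 1) over the genes of a list, where value is the normalized CPM. In bulk RNA, a larger number of cells of a type and more RNA per cell cannot be told apart.

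A single gene passed the test. Of 20084 genes tested with limma, 1 (0.00498%) had a Benjamini-Hochberg adjusted p under 0.05, the transglutaminase gene Tgm1, and it was higher in AD. At an unadjusted p under 0.05 there were 2427 genes (12.1%), against 1004.2 that this threshold gives by chance, of which 1231 (6.13%) were higher and 1196 (5.95%) lower in AD. The count of 2427 was 1515 without Ctrl 4 and 717 with the myelin score of each library as a covariate, an alternative added after the data were seen. That score did not overlap between the Ctrl and AD libraries, so a fit with it cannot fully separate group from score. Every AD library lay above every Ctrl library for 158 genes (0.787%) and below for 140 (0.697%). The median difference over all genes was -0.004 on the log2(value + 1) scale, on which every difference below is given unless another is named. On the whole reads recovered from the values (100% of values were whole within 0.01 reads), edgeR's quasi-likelihood test called 0 genes and had 2315 at an unadjusted p under 0.05. DESeq2 called 28 on the same reads, 17 higher and 11 lower, and left Tgm1 without an adjusted p because of its low counts. It drops genes of low counts before adjusting, so its adjusted p cover fewer genes than those of limma. The 28 are therefore not directly comparable with the 1 of limma. At an unadjusted p under 0.05 DESeq2 had 2354 genes, beside 2427 in limma.

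Tgm1 (chr14:55700009-55713926, GRCm38, protein coding) encodes a membrane-anchored enzyme that cross-links proteins through glutamine and lysine side chains and is best known from the outer layer of skin. Its normalized CPM were 0.267, 0.232, 0.447, 0.290 and 0.328 in Ctrl 1 to 5. In the 6 AD libraries the lowest value was 0.556, the median 1.51 and the highest 2.06. Every AD library lay above every Ctrl library, with AD 4 and AD 1, both of the low Ddx3y class, nearest to them. These levels rest on 12 to 20 reads in each Ctrl library and 31 to 103 in each AD library. The mean rose 4.42-fold, from 0.313 ± 0.0827 (SD, n = 5) to 1.38 ± 0.558 (SD, n = 6). The log2 difference was 0.83 with a standard error of 0.15 (95% interval 0.53 to 1.12, limma adjusted p = 0.0343). The gene was called again when AD 1 or AD 4 was left out (adjusted p of 0.0232 and 0.00126) and not when any of the other 9 libraries was left out (adjusted p between 0.0551 and 0.194). Its difference was 0.56 (limma adjusted p = 0.9998) with the myelin score of each library as a covariate, a score that itself did not overlap between the groups. With the choroid plexus score as a covariate it was 0.79 (limma adjusted p = 0.0749). Tgm1 is also a member of the reactive astrocyte list described below. Among other transglutaminases Tgm3 differed by -0.18 and Tgm7 by -0.20, with adjusted p of 0.529 and 0.358. On the list of transglutaminases and acyl-CoA-binding proteins, 13 of 15 genes were tested, 7 had a positive difference and the median was 0.01.

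Next in order of p came 5 genes that shared an adjusted p of 0.0969 in limma and so did not pass. Dbi (chr1:120113280-120121078) encodes the acyl-CoA-binding protein, also called diazepam-binding inhibitor, which carries fatty acyl-CoA and binds GABA receptors. Its values were 101, 109, 119, 111 and 126 in Ctrl 1 to 5. The AD libraries ran from 131 over a median of 144 to 157. No Ctrl library reached the lowest AD library, and the difference was 0.34 with a standard error of 0.07. S1pr3 (chr13:51408639-51422797), a receptor for sphingosine 1-phosphate, was at 11.5, 9.97, 11.9, 12.5 and 12.5 in Ctrl and between 14.4 and 21.9 in AD, again without overlap, and differed by 0.53. Ccdc190 (chr1:169928648-169934653) overlapped between the groups, from 16.9 to 24.0 in Ctrl and from 22.6 to 32.4 in AD, and differed by 0.42. The other members of this group, the lysosomal protease gene Ctsd and the histone gene H2bc4, are described with their lists. Among the 15 genes higher in AD with the smallest p were also Ptgr1, an enzyme that inactivates prostaglandins and leukotriene B4, at 2.11 to 2.65 in Ctrl and 3.22 to 4.25 in AD, and Nuf2, a kinetochore component, at 3.55 to 4.63 in Ctrl and 5.19 to 8.25 in AD. The signalling scaffold gene Bcar3 (0.42) and the membrane protein genes Tmem88b (0.43) and Fam189a2 (0.63) had an adjusted p of 0.147, as did Ptgr1 (0.47) and Nuf2 (0.54).

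**Figure D1:**
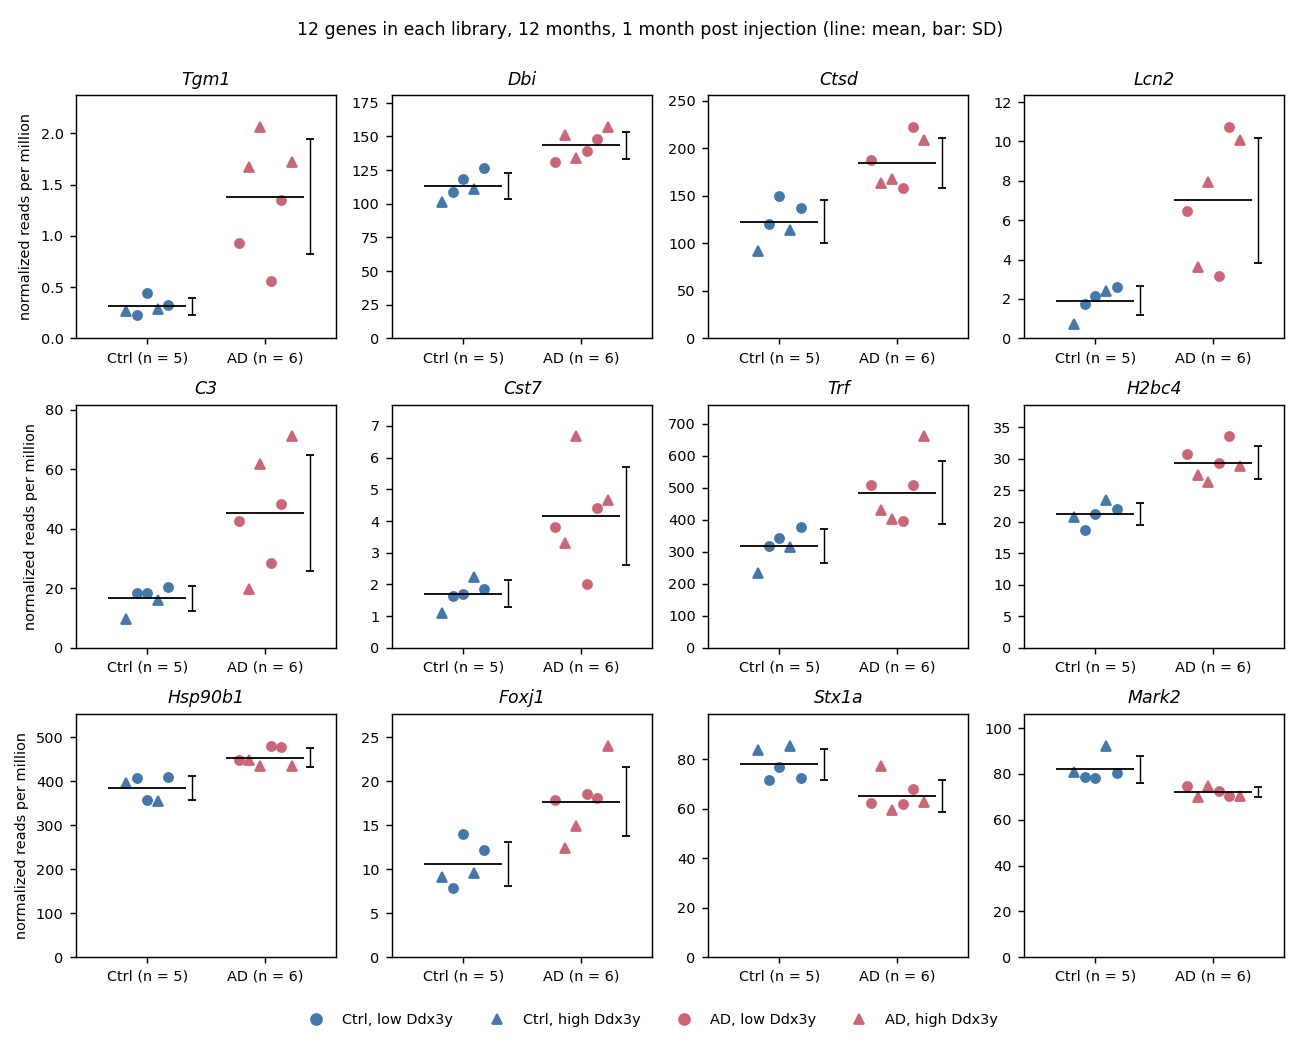
Normalized CPM (vertical axis, from 0) of 12 genes in each of the 5 Ctrl and 6 AD libraries, with the group mean as a line and the SD as a bar. Triangles are libraries with high Ddx3y and circles those with low Ddx3y. For Tgm1 the Ctrl libraries sit between 0.232 and 0.447 and the AD libraries between 0.556 and 2.06, whereas for Stx1a the order is the other way and the groups overlap.

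Most lysosomal genes had higher means in AD, by less than 2-fold. The lysosome and autophagy list has 27 genes, all of which were tested: 21 had a positive difference, and the median was 0.17. At an unadjusted p under 0.05, 15 were higher and 1 lower, against 6.13% and 5.95% of all genes. These shares are the background for every list below, and over all genes 9773 of 20084 had a positive difference. Genes of a list come from the same 11 libraries and can vary together, so its members are not independent results. None of the 27 passed limma's adjusted test, and Ctsd, Hexa and Lamp1 were among the genes DESeq2 called (adjusted p of 0.019, 0.0265 and 0.0358). Ctsd (chr7:142375911-142388038), cathepsin D, the main aspartic protease of lysosomes, was at 91.6, 120, 150, 114 and 138 in Ctrl and ran from 158 over a median of 178 to 222 in AD. All 6 AD libraries lay above all Ctrl libraries, and the mean was 1.51-fold higher (difference 0.59, standard error 0.12). Hexa, the alpha subunit of hexosaminidase A, was at 59.8, 74.8, 67.9, 58.2 and 70.0 in Ctrl and 74.8 to 91.8 in AD (0.29, adjusted p = 0.147), and the lowest AD library, AD 2, was barely above Ctrl 2. Lamp1, a glycoprotein of the lysosomal membrane, differed by 0.18 and Cd63, a tetraspanin of late endosomes, by 0.49, with adjusted p of 0.147 and 0.178. Ctsz, cathepsin Z, was at 31.3, 46.3, 47.1, 38.5 and 45.2 in Ctrl and 49.0 to 69.6 in AD (0.50, adjusted p = 0.147). The member that was lower, Atg7, an enzyme of autophagosome formation, had a difference of -0.13, and Map1lc3a, Map1lc3b, Becn1 and Sqstm1, which also serve autophagosomes, lay between -0.07 and -0.01, and Gabarap, of the same family as Map1lc3a, at 0.08.

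Transcription factor EB and its relatives bind the palindrome CACGTG, the core of the element shared by many lysosomal genes. In the 250 bases before the most upstream RefSeq start (GRCm38.p6), CACGTG stood in 5 of the 20 genes of the list that had a sequence (25%), against 6.04% of 27025 promoters and 7.79% of the 13702 promoters of genes tested. The 5 were Ctsd, Lamp1, Gaa, Glb1 and Atg7, whose differences were 0.59, 0.18, -0.03, 0.21 and -0.13, so the motif stood before members on both sides of 0. The stretch before Lamp1 is shown because it holds the motif 4 times (81 bases, chr8:13159080-13159160, plus strand). That before Ctsd is shown because Ctsd had the smallest p of the list (26 bases, chr7:142387910-142387935, minus strand, overlapping 1 annotated exon). The Ctsd stretch lies within the bounds of Ctsd given above. It holds 1 of the 2 matches before the Ctsd start used, the one nearer to it. Both stretches are written 5′ to 3′ along the gene, with CACGTG in capitals.
Lamp1: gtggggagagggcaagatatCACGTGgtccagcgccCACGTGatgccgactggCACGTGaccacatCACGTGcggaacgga
Ctsd: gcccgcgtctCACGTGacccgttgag

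The disease-associated microglia list had more members with a small p than genes at large, none past limma's adjusted test, while DESeq2 called Ctsd and Ctsz (adjusted p = 0.019 each). It describes microglia around aggregates, and 24 of its 27 genes had a positive difference, with a median of 0.43 and 19 higher and 0 lower at an unadjusted p under 0.05. Ctsd, Ctsz and Cd63 belong to it as well. Cst7 (chr2:150570415-150578944), cystatin F, an inhibitor of lysosomal cathepsins, was at 1.08, 1.64, 1.70, 2.25 and 1.85 in Ctrl. In AD it ran from 2.03 over a median of 4.11 to 6.67. The lowest AD library, AD 4, was below Ctrl 4, and the other AD libraries lay above all Ctrl libraries (mean 2.43-fold higher, difference 0.89, standard error 0.23, adjusted p = 0.174). Clec7a, the beta-glucan receptor dectin-1, was at 2.49, 6.88, 5.45, 5.91 and 7.42 in Ctrl and ran from 5.40 over 11.7 to 17.1 in AD (0.93, adjusted p = 0.228). Its lowest AD value came from AD 2, which has high Ddx3y, and its lowest value overall from Ctrl 1. The integrin gene Itgax differed by 0.77, Trem2, a lipid-sensing receptor, by 0.35, and Tyrobp, the adaptor through which Trem2 signals, by 0.43, with adjusted p of 0.256, 0.237 and 0.228. Apoe, a lipoprotein made by astrocytes and activated microglia, differed by 0.23 and the macrophage marker Cd68 by 0.23 (adjusted p of 0.309 and 0.530).

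The homeostatic microglia list was also mostly positive, at smaller sizes: 15 of 16 genes, a median of 0.17, and 6 higher and 0 lower at an unadjusted p under 0.05. Olfml3, a secreted glycoprotein, was at 29.2 to 32.4 in Ctrl and 33.4 to 42.5 in AD without overlap (0.30, adjusted p = 0.228), Cx3cr1, the fractalkine receptor, differed by 0.20 and Aif1, the marker protein Iba1, by 0.25 (adjusted p of 0.315 and 0.440). Markers of blood-borne leukocytes were low in all libraries. Of 16, 14 passed the filter on low values and all 14 had a positive difference with a median of 0.17, S100a8 and S100a9 of neutrophils differing by 0.60 and 0.61 and Cd3e of T cells by 0.27. This median was 0.08 without AD 3 and 0.32 without AD 2, and 0.07 (9 of 14 positive) within the low and 0.43 (13 of 14) within the high Ddx3y class. The T cell gene Cd3e was between 0.232 and 0.618 in Ctrl and between 0.242 and 1.12 in AD. The part of these cells in the microglial and immune lists was not tested.

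Reactive astrocyte and complement genes made a similar picture. On the reactive astrocyte list 26 of 28 genes had a positive difference, the median was 0.32, and 14 were higher and 0 lower at an unadjusted p under 0.05. Lcn2 (chr2:32384633-32388252), lipocalin-2, an acute-phase protein that binds bacterial siderophores, was at 0.711, 1.74, 2.14, 2.40 and 2.61 in Ctrl. In AD it ran from 3.17 over a median of 7.19 to 10.7. The groups did not overlap, and the mean was 3.65-fold higher (difference 1.39, standard error 0.31, adjusted p = 0.147). Steap4, a metalloreductase, was at 1.42 to 3.40 in Ctrl and 3.41 to 9.29 in AD, so that AD 4 and Ctrl 3 nearly touched (0.99, adjusted p = 0.166). Gfap, the intermediate filament of astrocytes, was at 622, 800, 860, 772 and 878 in Ctrl and ran from 821 over 940 to 1333 in AD, with overlap (0.36, adjusted p = 0.246), and the protease inhibitor gene Serpina3n differed by 0.41 (adjusted p = 0.241). General astrocyte markers were positive in 9 of 16 with a median of 0.04. At an unadjusted p under 0.05, 3 (18.8%) were higher, Sox9 (0.29), Mlc1 (0.18) and S100b (0.19), beside 6.13% of all genes. Lower was 1 (6.25%), Fgfr3 (-0.22), near the 5.95% of all genes. The difference between the reactive and general astrocyte lists was not tested.

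In the complement list 18 of the 19 genes tested, of 21 listed, had a positive difference, with a median of 0.32 and 8 higher at an unadjusted p under 0.05. C3 (chr17:57203970-57228136), the component on which the activation pathways converge, was at 9.52, 18.5, 18.4, 16.1 and 20.3 in Ctrl and ran from 19.7 over a median of 45.5 to 71.1 in AD. AD 2 lay among the Ctrl libraries and the other AD libraries above them (mean 2.74-fold higher, difference 1.32, standard error 0.31, adjusted p = 0.147). C4b, another component of the cascade, differed by 0.49, C1qa, part of its recognition molecule, by 0.45, C1s1, the protease that cleaves C4, by 0.64 and Itgb2, a chain of the receptor for cleaved C3, by 0.54, with adjusted p from 0.225 to 0.318.

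Interferon-response and MHC lists had larger median differences in the high than in the low Ddx3y class, which was not tested for the lists. All 28 genes of the interferon list and all 17 of the MHC list had a positive difference, with medians of 0.37 and 0.31, and 7 and 4 of them were higher at an unadjusted p under 0.05. Cxcl10 (chr5:92346638-92348889), a chemokine that attracts T cells, was at 0.888, 2.53, 1.41, 0.561 and 2.76 in Ctrl and ran from 0.992 over 3.12 to 10.2 in AD. The highest values were those of AD 3 and AD 6, and AD 2, AD 4 and AD 5 lay within the Ctrl range (0.81, adjusted p = 0.333). H2-K1, a classical MHC class I chain, was at 39.7, 78.9, 65.8, 42.0 and 71.5 in Ctrl and ran from 45.6 over 81.2 to 142 in AD (0.49, adjusted p = 0.360), and B2m, its light chain, differed by 0.47. The antiviral genes Rsad2 and Ifi27 differed by 0.53 and 0.41, the transcription factor gene Irf9 by 0.38, and H2-D1 by 0.48. Within the low Ddx3y libraries (3 AD, 3 Ctrl) the interferon list had a median of -0.02 with 13 of 28 genes positive, and within the high Ddx3y libraries (3 AD, 2 Ctrl) a median of 0.92 with 28 of 28 positive. The corresponding medians were 0.08 and 0.78 for the MHC list. No gene had a limma adjusted p under 0.05 for the difference between the classes. At an unadjusted p under 0.05 there were 1077 of 20084 genes, beside 1004.2 that this threshold gives by chance. For Cxcl10 the difference between the classes was 1.67 with a standard error of 0.64 (limma adjusted p = 0.874). Cytokine, chemokine and NF-kB genes were positive in 18 of 21 tested, with a median of 0.20 and 6 higher at an unadjusted p under 0.05. Tlr2, a receptor for bacterial lipoproteins, differed by 0.64, Nfkb2, a subunit of NF-kB, by 0.37 and the chemokine gene Ccl5 by 0.55 (adjusted p of 0.192, 0.282 and 0.341).

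All 20 myelin and oligodendrocyte genes had a positive difference, each at an unadjusted p under 0.05, with a median of 0.33. These genes come from the same 11 libraries and can vary together, so they are not 20 independent results. Their score was between 6.08 and 6.52 in the Ctrl libraries and between 6.56 and 6.92 in the AD libraries, with no overlap, and all 20 were positive within each Ddx3y class, with medians of 0.17 in the low and 0.51 in the high class. None of the 20 passed limma's adjusted test, and Ugt8a, Trf and Cryab were among the genes DESeq2 called (adjusted p of 0.0192, 0.0371 and 0.0408). Trf (chr9:103204001-103230444), transferrin, which oligodendrocytes and the choroid plexus both make, was at 234, 319, 344, 314 and 378 in Ctrl and ran from 398 over 470 to 661 in AD. The groups did not overlap (difference 0.60, standard error 0.15, adjusted p = 0.147). Klk6, a serine protease of oligodendrocytes, was at 1.92, 1.47, 2.39, 3.68 and 2.70 in Ctrl and 3.67 to 6.78 in AD, where AD 1 fell just below Ctrl 4 (0.93, adjusted p = 0.147). Ugt8a, which makes the myelin lipid galactosylceramide, differed by 0.43 and the small heat-shock protein gene Cryab by 0.33, with adjusted p of 0.147 and 0.174. The precursor list had 8 of 12 genes positive with a median of 0.05, and its largest member, Bcas1, a marker of newly formed oligodendrocytes, differed by 0.41.

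Genes of the ventricular lining had the largest median differences. All 11 ependymal genes tested, of 12 listed, had a positive difference, with a median of 0.63 and 10 higher at an unadjusted p under 0.05. Foxj1 (chr11:116330704-116335399), the master regulator of motile cilia, was at 9.08, 7.86, 14.0, 9.58 and 12.2 in Ctrl and ran from 12.4 over 18 to 24.0 in AD, where AD 2 overlapped Ctrl 3 (0.69, adjusted p = 0.254). The ciliary genes Ccdc153 and Tmem212 differed by 0.69 and 0.66 (adjusted p of 0.224 and 0.208). Choroid plexus genes had the largest median of all lists, 1.41, with 16 of 17 positive. Yet only 1 (5.88%) was higher at an unadjusted p under 0.05, beside 6.13% of all genes. Kl, the co-receptor klotho, was at 31.1, 57.4, 139, 33.2 and 103 in Ctrl and ran from 62.1 over 173 to 274 in AD. Ctrl 3 and Ctrl 5 lay within the AD range and AD 2, AD 3 and AD 4 within the Ctrl range (difference 1.25, standard error 0.63, adjusted p = 0.420). The potassium channel gene Kcnj13 and Calml4 differed by 1.44 and 1.03 (adjusted p of 0.462 and 0.385). With the choroid plexus score as a covariate 0 genes were called, 1455 had an unadjusted p under 0.05, and the median of the ependymal list was 0.32. How much ventricular tissue each dissection held was not tested.

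A subset of endoplasmic reticulum chaperones had higher means in AD, none past limma's adjusted test, while DESeq2 called Hsp90b1 (adjusted p = 0.0358). The list of unfolded protein and heat shock genes was positive in 16 of 20 with a median of 0.04. At an unadjusted p under 0.05, 4 (20%) were higher and 1 (5%) lower, beside 6.13% and 5.95% of all genes. The 4 serve protein folding in the endoplasmic reticulum. Hsp90b1 (chr10:86690209-86705509), the chaperone GRP94, was at 396, 407, 357, 354 and 409 in Ctrl and ran from 434 over 447 to 480 in AD. The groups did not overlap (difference 0.24, standard error 0.06, adjusted p = 0.147). Hspa5, the chaperone BiP, was at 405, 424, 388, 402 and 472 in Ctrl and ran from 431 over 508 to 583 in AD (0.27, adjusted p = 0.371), Sdf2l1 differed by 0.43 and Dnajb9 by 0.10. The cytosolic heat shock genes Hspa1a and Hspa1b differed by -0.09 and -0.03, Xbp1 by 0.05 and Ddit3 by 0.04, and Asns, asparagine synthetase, a target of the amino acid branch of the same response, by -0.15 (adjusted p = 0.327).

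The endoplasmic reticulum stress element has the letters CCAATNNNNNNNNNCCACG, and both strands were searched in the same 250 bases. It stood before 33 of 27025 genes (0.122%), and before 2 of the 18 genes of this list that had a sequence (11.1%), Hspa5 and Hsp90b1. These stretches are shown because they hold the matches, 1 before Hspa5 and 2 before Hsp90b1. That of Hspa5 has 25 bases (chr2:34772022-34772046, plus strand) and overlaps 1 annotated exon. That of Hsp90b1 has 164 bases (chr10:86705513-86705676, minus strand). The fixed letters of each match are in capitals, 5′ to 3′ along the gene, and the second match before Hsp90b1 is on the opposite strand.
Hspa5: tcaCCAATcggaggcctCCACGacg
Hsp90b1: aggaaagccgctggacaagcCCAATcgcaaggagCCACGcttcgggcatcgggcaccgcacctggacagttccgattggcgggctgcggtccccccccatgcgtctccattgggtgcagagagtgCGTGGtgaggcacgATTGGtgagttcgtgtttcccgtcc

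Histone genes that are transcribed during DNA replication gave more polyadenylated RNA in AD on average, with no gene past the adjusted test of limma or edgeR. None was among the genes DESeq2 called, but DESeq2 can leave genes of low counts without an adjusted p, as it did Tgm1. Of 65 listed, 25 passed the filter on low values, and 21 of those were positive with a median of 0.17 and 7 higher at an unadjusted p under 0.05. The score was between 1.07 and 1.11 in Ctrl and between 1.16 and 1.41 in AD, without overlap, and the median was 0.29 within the low and 0.15 within the high Ddx3y class. H2bc4, a histone H2B gene, was at 20.8, 18.7, 21.2, 23.5 and 22.1 in Ctrl and ran from 26.3 over 29.2 to 33.6 in AD. Every AD library lay above every Ctrl library (difference 0.45, standard error 0.09, adjusted p = 0.0969). H4c9 and H3c4 differed by 0.51 and 0.41 and the linker histone genes H1f3 and H1f4 by 0.32 and 0.49, at levels of at most 3.29 in any library, with adjusted p from 0.228 to 0.336. The proliferation list, with genes of the cell cycle and DNA replication, was positive in 12 of 18 with a median of 0.05 and no member at an unadjusted p under 0.05. Histone genes share long identical stretches, so reads may be split between copies. Of 78 ribosomal protein genes 62 were positive with a median of 0.04, led by Rps27l at 0.40 and Rpl23 at 0.16, both without overlap between the groups.

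Most synaptic genes had lower means in AD, by small amounts, and none passed the adjusted test of limma, edgeR or DESeq2. On the synapse list 27 of 28 genes had a negative difference, the median was -0.11, and 13 were lower and 0 higher at an unadjusted p under 0.05, against 5.95% of all genes lower. Stx1a (chr5:135023482-135051100), syntaxin 1A, a SNARE of vesicle fusion, was at 83.7, 71.5, 76.8, 85.5 and 72.3 in Ctrl and ran from 59.6 over 62.7 to 77.3 in AD. The only AD library above the lowest Ctrl library was AD 2 (difference -0.25, standard error 0.07, adjusted p = 0.188). The synaptic vesicle genes Syn1 and Syn2 differed by -0.18 and -0.16, and Grin1, the obligatory subunit of NMDA receptors, by -0.18, the last without overlap between the groups (300 to 332 in AD and 337 to 414 in Ctrl). Synapse scores lay between 8.87 and 8.94 in the AD libraries and between 8.92 and 9.13 in Ctrl, with Ctrl 1 and Ctrl 4 highest.

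The tau list, of Mapt and the kinases and phosphatases that act on tau, was negative in 21 of 22 genes, with a median of -0.08. At an unadjusted p under 0.05, 6 (27.3%) were lower and 0 higher, against 5.95% of all genes lower. Over all genes, 10311 of 20084 had a negative difference. Tau list scores overlapped, from 7.75 to 7.86 in AD and from 7.81 to 7.98 in Ctrl, with Ctrl 4 highest. Mapt itself, the host's tau, was at 484, 460, 470, 522 and 461 in Ctrl and ran from 436 over 448 to 480 in AD, with overlap (-0.09, adjusted p = 0.476). Mark2 (chr19:7275396-7341860), which phosphorylates tau in its microtubule-binding repeats, was at 80.7, 78.8, 78.0, 92.2 and 80.5 in Ctrl and ran from 70.1 over 71.5 to 74.7 in AD, with no overlap (-0.18, standard error 0.05, adjusted p = 0.208). Mark4 and Mark1 of the same family differed by -0.15 and -0.10, and Cdk5r1, the activator of the kinase Cdk5, by -0.13. App, the amyloid precursor, differed by -0.05 (adjusted p = 0.703).

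The lower genes with the smallest p had small differences and low spread. None passed limma's adjusted test, and DESeq2 called Ppp1r7, Bcl7a, Dcaf7, Usp12, Rap1gap2, Smpd3, Strn4, Me3, Cadm3 and Atmin, with adjusted p from 0.0358 to 0.0443. Ppp1r7, a regulator of protein phosphatase 1, was at 118 to 127 in Ctrl and 102 to 112 in AD, and Usp12, a deubiquitinase, at 78.1 to 85.5 and 66 to 76. Dcaf7, a scaffold for kinases, was at 234 to 275 and 224 to 229, and Me3, the mitochondrial malic enzyme, at 42.3 to 45.5 and 36.6 to 38.4. In all 4 every AD library lay below every Ctrl library, with differences of -0.17, -0.18, -0.14 and -0.21 (adjusted p = 0.147 each). Glp2r, the receptor for glucagon-like peptide 2, had the largest difference of these genes, -0.55, from 3.44 to 5.14 in Ctrl and 1.94 to 4.03 in AD. The other lower genes with the smallest p were Bcl7a, Smpd3, Rap1gap2, Strn4, Atmin, Cadm3, Slc36a4, Pcdhga9, Rnps1 and Mier2, between -0.40 and -0.16. Of genes with a mean of at least 1 on the log2 scale whose groups did not overlap, Lcn2, Steap4 and Hdc, the enzyme that makes histamine (0.75), differed most upward, and Pcdhga9 (-0.40) and Otogl (-0.33) were among the largest downward.

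**Figure D2:**
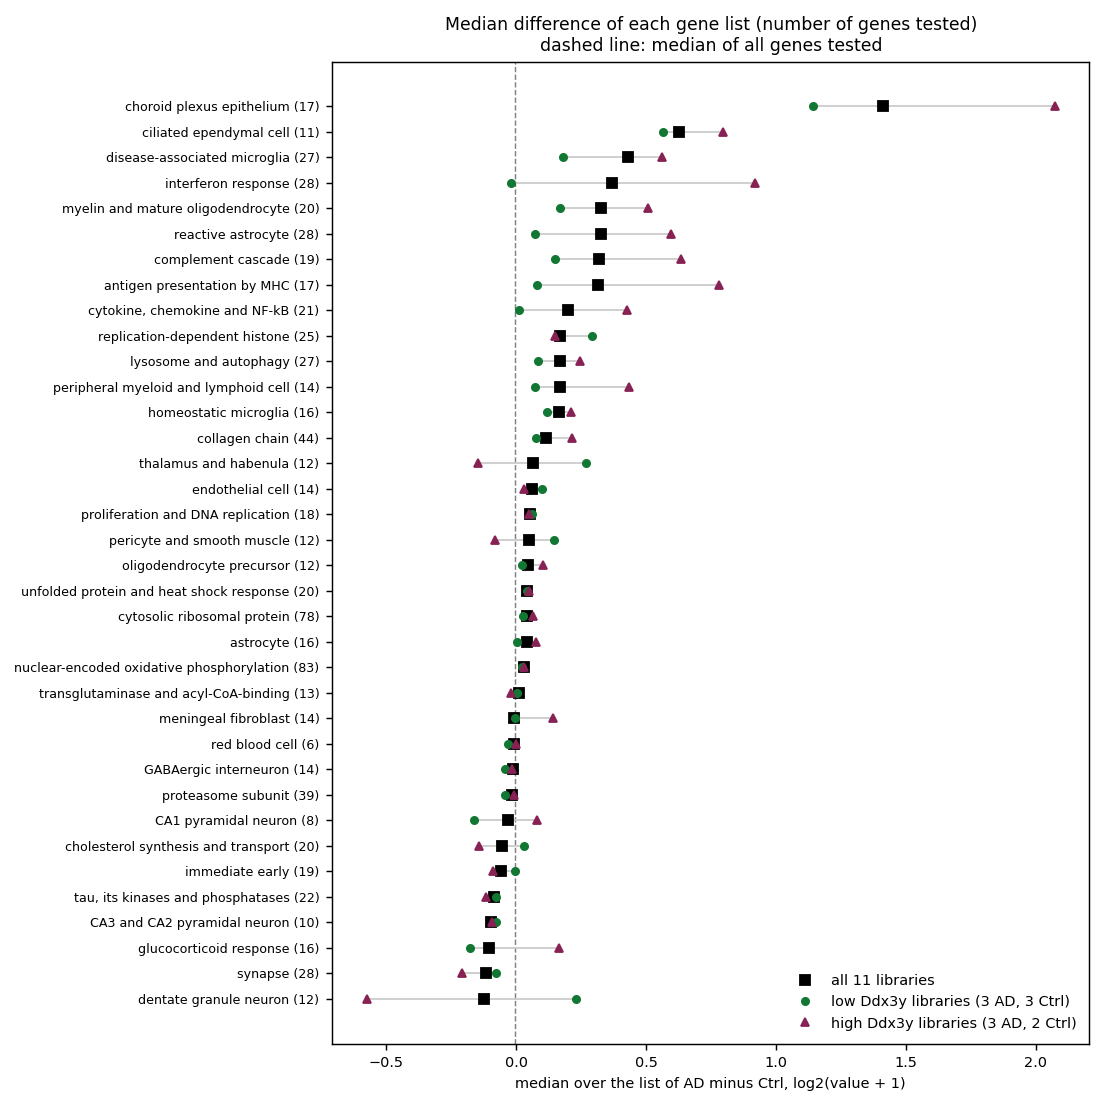
Median over each of 36 gene lists of the AD minus Ctrl difference on the log2(value + 1) scale (horizontal axis), over all 11 libraries (squares) and within the low (circles) and high (triangles) Ddx3y libraries. Choroid plexus, ependymal, glial and immune lists lie to the right of the all-gene median, and the interferon list runs from -0.02 in the low to 0.92 in the high class.

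Lists of hippocampal neurons had few members at an unadjusted p under 0.05. CA1 genes were positive in 1 of 8 (median -0.03), CA3 and CA2 genes in 3 of 10 (-0.10) and dentate granule genes in 2 of 12 (-0.13), and the kainate receptor gene Grik4 of CA3 was the only member of the 3 lists at that threshold (-0.22, lower without overlap). The dentate list differed between the classes, with a median of 0.23 and 11 of 12 genes positive in the low and -0.58 and 2 of 12 in the high Ddx3y libraries. C1ql2, a synaptic organizer of mossy fibres, differed by 0.16 in the low and -0.99 in the high class. Medians lay between -0.10 and 0.11 for the remaining lists: interneuron, thalamic, endothelial, pericyte, meningeal, red blood cell, immediate early, glucocorticoid, cholesterol, proteasome, oxidative phosphorylation, collagen and transglutaminase genes. Meningeal fibroblast scores ranged from 3.58 in AD 2 to 5.43 in AD 5.

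The immune lists had larger medians in the high Ddx3y class. On their scores Ctrl 1 and Ctrl 4, its Ctrl libraries, were low, and AD 3 and AD 6 were high, whereas AD 2 lay near Ctrl. Disease-associated microglia medians were 0.18 in the low and 0.56 in the high class, and those of reactive astrocytes 0.07 and 0.60. Leaving out 1 library at a time brought the median of the MHC list to between 0.15 (without Ctrl 1) and 0.51 (without AD 2) and that of the interferon list to between 0.23 (without Ctrl 1) and 0.58 (without Ctrl 2). Corresponding ranges were 0.26 to 0.37 for myelin, 0.32 to 0.48 for disease-associated microglia, 0.21 to 0.39 for reactive astrocytes and 0.13 to 0.20 for lysosomal genes. Within the high class 3 genes passed, Tgm1 (1.14), Gh (3.92) and Ncan, the proteoglycan neurocan (-0.32), and Gh was at 0.0178 and 0 in Ctrl 1 and Ctrl 4 and at 6.77, 11.0 and 36.8 in AD 2, 3 and 6. Within the low class 0 passed. At an unadjusted p under 0.05 in limma there were 1106 of 20084 genes in the low class and 2896 in the high class. Chance gives 1004.2 at this threshold, and the high class holds 2 Ctrl libraries. With 1 mean for each combination of group and class, and the effect averaged over the classes, 17 genes passed: Tgm1, Ccdc190, Rgs1, Dbi, Cyp4f18, Ctsd, Hexa, H2bc4, Lcn2, Ctsz, S1pr3 and the gene model Gm50351 higher, and Bcl7a, Dcaf7, Usp12, Gfod1 and Rap1gap2 lower. In this fit, which was chosen after the data were seen, Tgm1 had an adjusted p of 0.00202, Ctsd of 0.0387 and Lcn2 of 0.0425. Rgs1, a regulator of G protein signalling in leukocytes and microglia, was at 0.178 to 0.464 in Ctrl and 0.639 to 1.71 in AD, and Cyp4f18, a leukotriene hydroxylase, differed by 0.46 in the low and 0.48 in the high class.

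**Figure D3:**
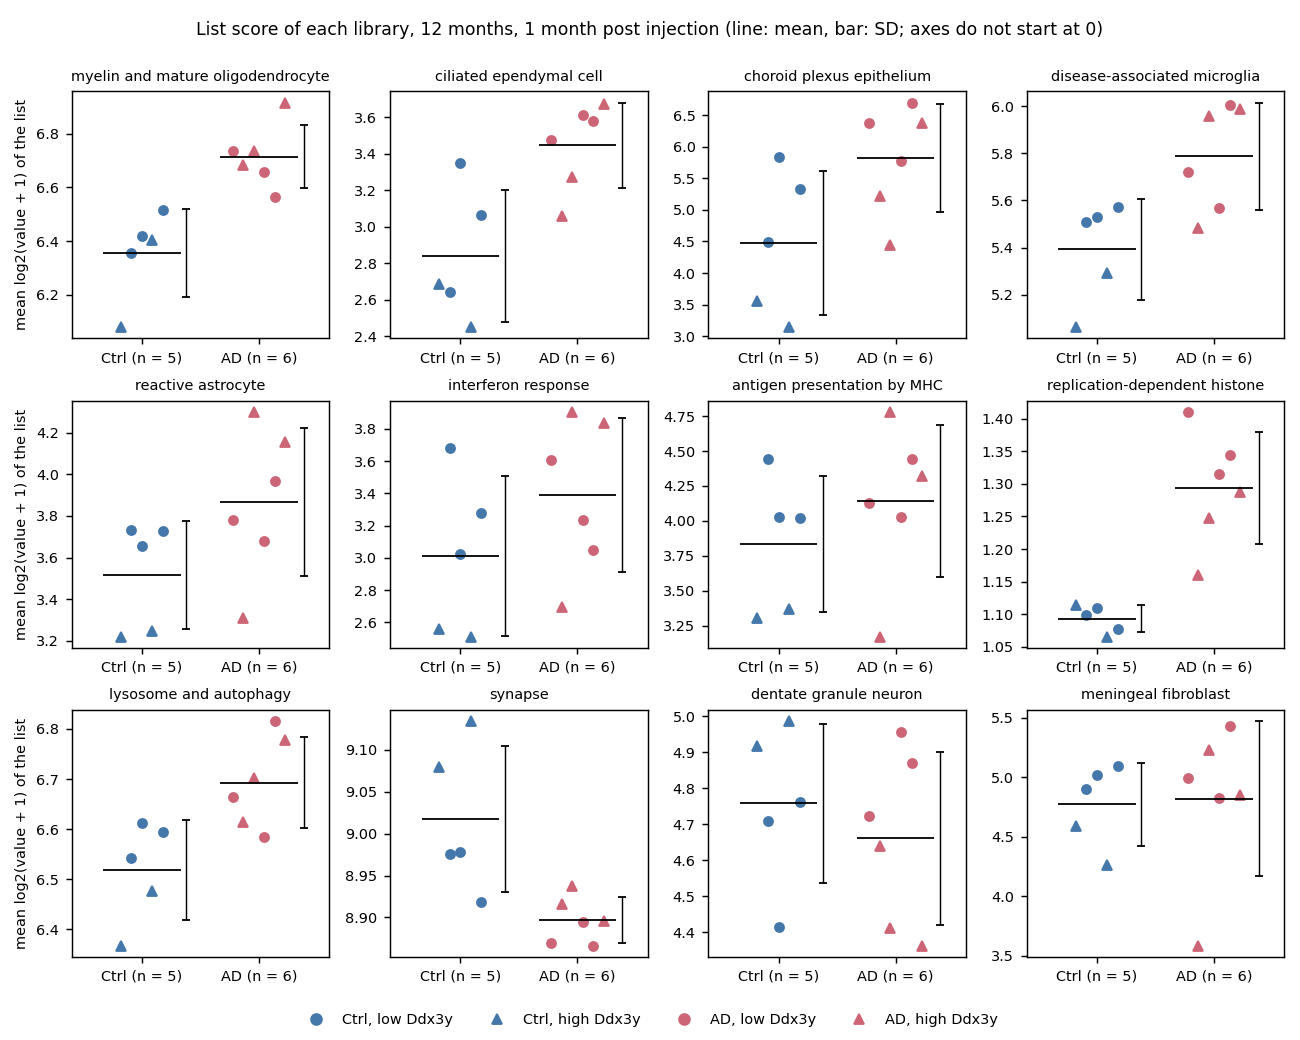
Score of 12 gene lists (mean log2(value + 1), vertical axis, not from 0) in each of the 5 Ctrl and 6 AD libraries, with the group mean and SD, triangles for high and circles for low Ddx3y. The myelin and histone scores of the groups do not overlap, and for the interferon and MHC lists Ctrl 1, Ctrl 4 and AD 2, all triangles, are the lowest 3 libraries.

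Few genes differed in their AD effect between 1 mpi and later times at 12 months. Tested on their own, the AD and Ctrl libraries at 3 mpi had 0 genes past the adjusted test and 796 (3.96%) at an unadjusted p under 0.05 (1.94% higher, 2.03% lower). Those at 5 mpi had 11 (0.0548%, all higher) and 1705 (8.49%; 4.3% higher, 4.19% lower). When the 1 mpi difference was set against that of 3 mpi, 0 of 20084 genes passed limma's adjusted test, with 884 (4.4%) at an unadjusted p under 0.05 (1.98% higher and 2.42% lower at 1 mpi), and 0 were called by edgeR or DESeq2. Against 5 mpi, 1 passed (0.00498%), with 1171 (5.83%) at an unadjusted p under 0.05 (2.81% higher, 3.02% lower). That gene, Gm1821 (chr14:46084028-46085000), a gene model, differed by -0.14 at 1 mpi, -0.02 at 3 mpi and 0.38 at 5 mpi, and the difference between 1 and 5 mpi was -0.52 (adjusted p = 0.0444). Tgm1 differed by 0.83, 0.09 and 0.14 at the 3 times, and the difference between 1 and 3 mpi was 0.73 (adjusted p = 0.979) and that between 1 and 5 mpi 0.69 (adjusted p = 0.510). Dbi differed by 0.34, 0.09 and 0.02, Ptgr1 by 0.47, -0.03 and -0.03, Hsp90b1 by 0.24, 0.00 and -0.04, and Ctsd by 0.59, 0.19 and 0.20, none with an adjusted p under 0.05 for a difference between times. C3 differed by 1.32, 0.70 and 0.84. Myelin list medians were 0.33, 0.13 and 0.07 at 1, 3 and 5 mpi, with 8 of 20 genes at an unadjusted p under 0.05 for 1 against 5 mpi, and those of disease-associated microglia 0.43, 0.15 and 0.16. The unfolded protein list was positive in 16, 11 and 1 of 20 genes at these times, with medians of 0.04, 0.01 and -0.07. These contrasts use the same AD and Ctrl libraries at 1 mpi.

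In 3-month-old mice at 1 mpi, 0 of 19976 genes passed, with 1006 (5.04%) at an unadjusted p under 0.05 (2.88% higher, 2.16% lower). After joint scaling of the reads of both tables, 0 of 21297 genes passed for the difference in AD effect between the ages, with 1150 (5.4%) at an unadjusted p under 0.05 (2.48% higher, 2.92% lower at 12 months), and 0 were called by edgeR or DESeq2. Tgm1 differed by 0.32 in 3-month-old mice and the difference between ages was 0.50 (adjusted p = 0.890). Lcn2 differed by 1.21 and Klk6 by 0.82 at 3 months, beside 1.39 and 0.93 at 12 months. The interferon list was positive in 7 of 28 genes at 3 months with a median of -0.09, and in 28 of 28 at 12 months, and the choroid plexus list in 0 of 17 with a median of -0.27, and in 16 of 17. At 3 months the myelin list was positive in 20 of 20 genes (median 0.20) and homeostatic microglia in 16 of 16 (0.14). Disease-associated microglia genes were positive in 24 of 27 (0.20), lysosomal genes in 26 of 27 (0.10) and reactive astrocyte genes in 12 of 28 (-0.02). Age and the table in which the libraries were deposited cannot be told apart.

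**Figure D4:**
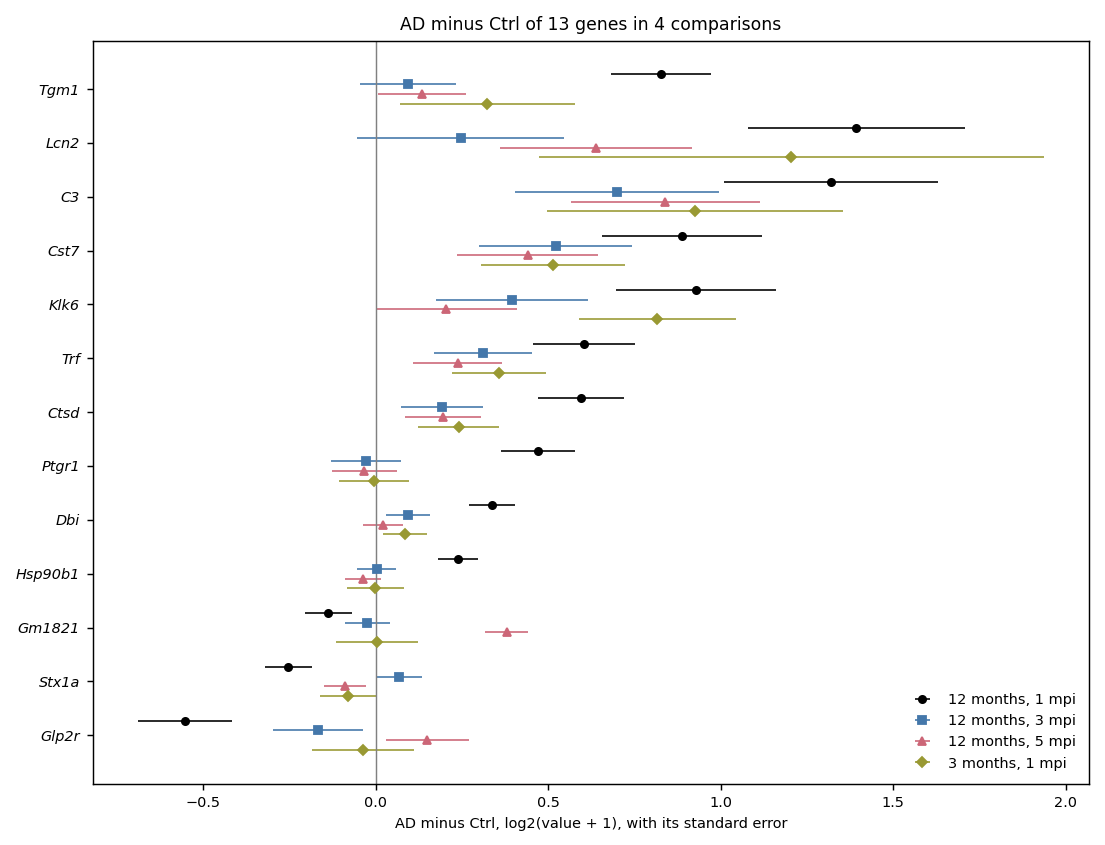
AD minus Ctrl difference of 13 genes on the log2(value + 1) scale (horizontal axis) with its standard error, in 12-month-old mice at 1, 3 and 5 mpi and in 3-month-old mice at 1 mpi. Tgm1 stands at 0.83 at 12 months and 1 mpi and at 0.09 to 0.32 in the other comparisons, and Gm1821 is positive at 5 mpi and negative at 1 mpi.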

How the data were processed

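The deposited values are a normalized signal per gene: per the submitters' processing notes, which name STAR, Picard, edgeR and GRCm38 without versions, and from the values themselves, the authors divided read counts by the library total and 1 scaling factor per library. Kits marking strand are not named, so a gene and its antisense partner cannot be told apart. Of the 55421 rows, 120 repeat a symbol and 27 symbols had become dates, and 96.5% of symbols were in GENCODE M21. Reads were recovered as whole multiples of the value of 1 read. Genes kept by edgeR's filterByExpr were tested with limma 3.58.1 (R 4.3.3) on log2(value + 1), with 1 mean per group over all 12-month libraries. The 2 ages were joined on recovered reads of all 66 libraries with TMM scaling. edgeR 4.0.16, DESeq2 1.42.0, other filters, scalings, pseudocounts, covariates and leaving out each library were alternatives. Intervals are 95%.

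Members, lists and tests were chosen with earlier results of these data known. Named were called genes, the 15 genes each way with the smallest p and a mean of at least 1 on the log2 scale (no gene models), up to 5 genes of each of 37 lists, fixed glial and tau genes, the leading genes of each difference, and the 3 largest without overlap each way. Other members named were chosen after their values were seen. A few members are not reported here. Within groups, every pair of libraries differed beyond counting error (chi-square over degrees of freedom at least 12.7). The limma step was tested on simulated data. Symbols of histone genes had no position in GENCODE M21.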

Additional observations from a re-analysis of the deposited data

Results flagged for a closer look

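Among 124 groups of libraries checked, over list scores and the genes shown library by library, 9 had a library apart from the others of its group by Dixon's criterion, where chance gives about 1 in 20. In scores these were AD 3 at 5.51 for oligodendrocyte precursors (the others 5.38 to 5.43) and at 5.79 for unfolded protein genes (5.49 to 5.59). AD 2 was at 4.59 for endothelial (4.97 to 5.17), 3.58 for meningeal (4.83 to 5.43) and 5.87 for proteasome genes (5.70 to 5.75). AD 4 was at 4.28 for thalamic genes (3.57 to 3.68), Ctrl 2 at 3.51 for pericytes (3.64 to 3.67) and Ctrl 4 at 4.68 for CA3 and CA2 neurons (4.58 to 4.59). By gene, Ctrl 4 had a Mark2 of 92.2 (78.0 to 80.7).

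Between Ddx3y classes the dentate granule score moved in opposite directions: each of the 3 AD libraries with low Ddx3y lay above the mean of its Ctrl libraries, by 0.222 on average, and each of the 3 with high Ddx3y below, by a mean of -0.48. This difference was not tested. The AD effect of the gene model Gm1821 differed between 1 and 5 mpi by -0.516 (limma adjusted p = 0.0444).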

How the results depend on the processing

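The count of 1 gene at 1 mpi became 28 with DESeq2, which adjusted over fewer genes. It became 17 with group and class means, 3 within the high and 0 within the low Ddx3y libraries. It became 0 with edgeR, a pseudocount of 0.1, no filter, only the groups compared, and the choroid plexus, myelin or choroid plexus and sex-linked covariates. With a mean value of at least 1 the count was also 0, but Tgm1 did not pass that filter and was not tested. Without any 1 library the count was 0 to 3 (3 without AD 1, 1 without AD 4, 0 without any other). The count of 1 between 1 and 5 mpi became 5 with DESeq2, 3 with edgeR, 0 with the choroid plexus covariate, no filter, only the groups compared and either other scaling, and 0 to 3 without any 1 library (0 in 17 of 25 such fits). Between 1 and 3 mpi the count was 0 in every fit run. The count of 0 between ages became 3 without Ctrl 2 of the 3-month-old mice and was 0 without any other. The Ddx3y class fits, the myelin covariate and the pair of covariates were added after the data were seen. The cause of these moves was not tested. With the replicate number as a block, the counts at 1 mpi and between 1 and 5 mpi became 0, but numbers were shared by label only: same-numbered libraries correlated at -0.279 to 0.228.

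With the myelin score as a covariate Bcas1 and Cd68 turned to -0.0335 and -0.0454, and C1ql2 was 0.16 (its value over all libraries was -0.36) within the low Ddx3y libraries. Of the gene and list values recomputed, 4775 stayed the same. A gene stayed when its direction and side of the threshold held, a list when its median moved by less than the spread of its score. Among genes, 41 values lost the threshold, 36 reached it and 3 reversed, and 38 list medians moved by more than the spread. List medians that stayed were not checked for direction, and most genes were called in neither fit. Tgm1 rests on 12 to 103 reads per library, where log2(value + 1) understates the fold: it differed by 2.14 in edgeR.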

Other observations

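Some pituitary transcripts were present in these hippocampal libraries. Prl, prolactin, ranged from 0.136 in Ctrl 4 to 14.3 in Ctrl 2, and Pomc, the precursor of corticotropin, from 0.391 in Ctrl 1 to 17.3 in AD 6, the library that also had the highest Gh. Their part in the differences was not tested.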
